A study of Schizosaccharomyces pombe with 6 samples.

Results

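The 10 genes described here encode proteins of meiotic recombination in fission yeast, *Schizosaccharomyces pombe*: dmc1, rec6, rec7, rec8, rec10, rec11, rec12, rec15, rec25 and rec27. They were chosen by name for that role, out of 12606 annotated genes, of which 5113 are protein-coding. Capped 5′ ends of RNA were mapped by cap analysis of gene expression (CAGE) in growing cells of 2 strains with 3 libraries each. The mutant, fft2fft3, is an h- strain in which fft2::kan and fft3::hph remove a pair of paralogous SNF2-family chromatin remodelling ATPases, next to the markers ura4-D18, leu1-32 and ade6M210. The wild type, wt, is also h- and carries ura4-D18, leu1-32 and ade6-M210. Whole cells of both haploid strains were harvested in mid-log growth from rich YES medium, kept at 30 °C and shaken at 180 rpm. Cells of a single mating type in rich medium do not normally enter meiosis. The study's stated question concerns start site positions in this mutant.

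In meiosis, the topoisomerase-like protein Rec12, the relative of Spo11, cuts DNA together with partners that include Rec6, Rec7 and Rec15. The cuts are made on chromosomes organised by meiotic cohesin, with the subunits Rec8 and Rec11, and by linear elements, short protein axes that contain Rec10, Rec25 and Rec27. Dmc1 then pairs the broken ends with the homologous chromosome. Transcripts of many meiotic genes are kept low in growing fission yeast, in part by degradation through the RNA-binding protein Mmi1, and the MBF complex, which binds ACGCGT, activates a group of them before meiotic DNA replication.

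Values are in TPM, tags scaled to the library total, as the authors deposited them for tag clusters shared by all libraries, and a cluster's position is that of its summit, the base with most tags. Distances are given from the annotated start, where a summit at 1 means that transcription starts on the annotated base. A gene's promoter value sums same-strand clusters from 500 bp upstream of the start to 100 bp downstream of it, or to the start codon if further. Later same-strand clusters within the gene are intragenic, and opposite-strand clusters within it are antisense. Clusters assigned to another coding gene are left out of both. Genes or clusters averaging 1 TPM or more across all 6 libraries entered a limma test on log2(TPM + 0.5), with Benjamini-Hochberg adjustment over all features tested and a threshold of 0.05.

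Libraries held 19861880 to 23242895 tags in fft2fft3 and 12681906 to 20072985 tags in wt, so counting error alone was 9.28% to 12.6% of a value of 5 TPM. Many members lay lower than that. Tags inside the deleted genes fell, with 0.12 ± 0.046 TPM in fft2fft3 and 5.11 ± 1.02 TPM in wt for fft2, and 0.414 ± 0.177 and 2.56 ± 0.952 TPM for fft3 (SD, n = 3 each). Promoter tags of fft2 also fell, to 11 ± 0.763 TPM in fft2fft3 against 67.6 ± 1.2 TPM in wt, whereas those of fft3 were higher, at 174 ± 47.4 TPM in fft2fft3 and 71.2 ± 29.2 TPM in wt (log2 1.32, limma adjusted p = 0.0155). The extent of either deletion is not given in the sources used here. One wt library stood apart: replicate 2 had 190 TPM of the meiotic regulator mei2, against 7.42 and 9.61 TPM in the other wt libraries. The value of dmc1 there, 0.552 TPM, lay between those of the other wt libraries. Of 5610 genes tested, 1362 were higher and 511 lower in fft2fft3, which became 1039 and 858 with TMM scaling and 1046 and 833 with median-of-ratios scaling. Among 4685 protein-coding genes the numbers were 792 and 452 (16.9% and 9.65%), with TMM 497 and 781, and with median-of-ratios 502 and 756. Over all genes tested the log2 fold changes had a median of 0.13 with the deposited scaling and -0.02 with TMM, and member values with TMM are given where they matter.

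The promoters printed here, 5′ to 3′ on the gene's strand in assembly ASM294v3, are those of the recombinase gene, of 2 genes whose proteins form the cutting machinery, and of 2 axis genes. They show where transcription starts relative to ACGCGT. Capitals mark ACGCGT, the pyrimidine and purine at which transcription starts, and in dmc1 also TGTTTAC, the reverse complement of the forkhead motif GTAAACA. The windows are I:3382054-3382283 on the plus strand for dmc1, II:1650215-1650294 on the minus strand for rec6, III:1549064-1549143 on the minus strand for rec7, II:2568868-2568947 on the plus strand for rec8 and I:4303874-4303953 on the minus strand for rec10.
dmc1: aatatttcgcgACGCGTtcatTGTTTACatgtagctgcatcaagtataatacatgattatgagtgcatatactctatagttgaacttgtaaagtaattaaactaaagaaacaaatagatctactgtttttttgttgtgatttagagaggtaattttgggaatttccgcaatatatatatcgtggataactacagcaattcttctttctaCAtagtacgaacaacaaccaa
rec6: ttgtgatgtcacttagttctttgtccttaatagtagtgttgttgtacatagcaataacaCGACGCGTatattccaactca
rec7: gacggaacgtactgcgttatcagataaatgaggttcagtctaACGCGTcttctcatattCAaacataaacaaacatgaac
rec8: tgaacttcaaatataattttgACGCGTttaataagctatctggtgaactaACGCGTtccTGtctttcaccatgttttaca
rec10: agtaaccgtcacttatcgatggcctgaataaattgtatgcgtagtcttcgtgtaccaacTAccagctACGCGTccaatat

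ACGCGT, a palindrome that reads the same on both strands, was found from 250 bp before to 50 bp after the annotated start in 9 of the 10 members, all but rec15. The same window held it in 166 of 5112 protein-coding promoters, or 3.25%. Counted from the first transcribed base, its first base lay 199 bp upstream in dmc1 and rec25, 192 bp upstream in rec27 and 169 bp upstream in rec11. In rec8 a pair of copies began 39 and 10 bp upstream, and in rec7 one began 18 bp upstream. In the other 3 genes it lay downstream of a start, beginning 1 bp after it in rec6, 7 bp after it in rec10 and 21 bp after the start of rec12 that is nearest to the gene. The forkhead motif GTAAACA, of the kind bound by the meiotic factor Mei4, was in 3 members (dmc1, rec7 and rec11) and in 16.5% of promoters, with both strands searched. The related GTAAATA was in 1 member, rec10, and in 16.2% of promoters. The motif TTCTTTGTT of the factor Ste11 was in 0 members and in 2% of promoters. Of the 157 other protein-coding genes with ACGCGT, 144 were tested, 24 were higher in fft2fft3 (16.7%) and 13 lower (9.03%), with a median log2 fold change of 0.11. These values are near those of all protein-coding genes tested, with 16.9% higher, 9.65% lower and a median of 0.08.

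Among promoters, dmc1, rec12, rec15 and rec8 were higher in fft2fft3, and the rise of dmc1 was far larger than the others. Of the 10 members, 7 reached 1 TPM and were tested. Of these, 4 were higher and 0 lower, against 24.3% higher and 9.11% lower of all genes tested (limma). Of the protein-coding genes tested, 16.9% were higher and 9.65% lower. At an unadjusted p under 0.05 the member counts were also 4 and 0, and edgeR and DESeq2 each gave 3 and 0. The genes dmc1 and rec15 reached 1 TPM only through the mutant, and so had to differ to be tested. Without wt replicate 2 the calls of dmc1, rec12 and rec15 held, with log2 fold changes of 4.72, 0.93 and 0.93, while that of rec8 ended at a log2 fold change of 0.50 (limma adjusted p = 0.0756). The 3 libraries of each group did not overlap in 4 of the 7 tested members, all higher (dmc1, rec8, rec12 and rec15). Over all genes tested, coding and non-coding, the shares were 33.4% higher and 14.4% lower. Below the filter, rec6 was higher and rec27 lower without overlap, the latter on 7 tags in fft2fft3 and 20 in wt. The shares of 33.4% and 14.4% do not cover genes below the filter. The 10 promoters together had 56, 80.5 and 70.3 TPM in fft2fft3 libraries 1 to 3, and 22.7, 18.2 and 19 TPM in wt libraries 1 to 3. The share of dmc1 in that sum was 45.2%, 55.1% and 54.5% in fft2fft3, and 6.15%, 3.03% and 2.39% in wt.

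**Figure D1:**
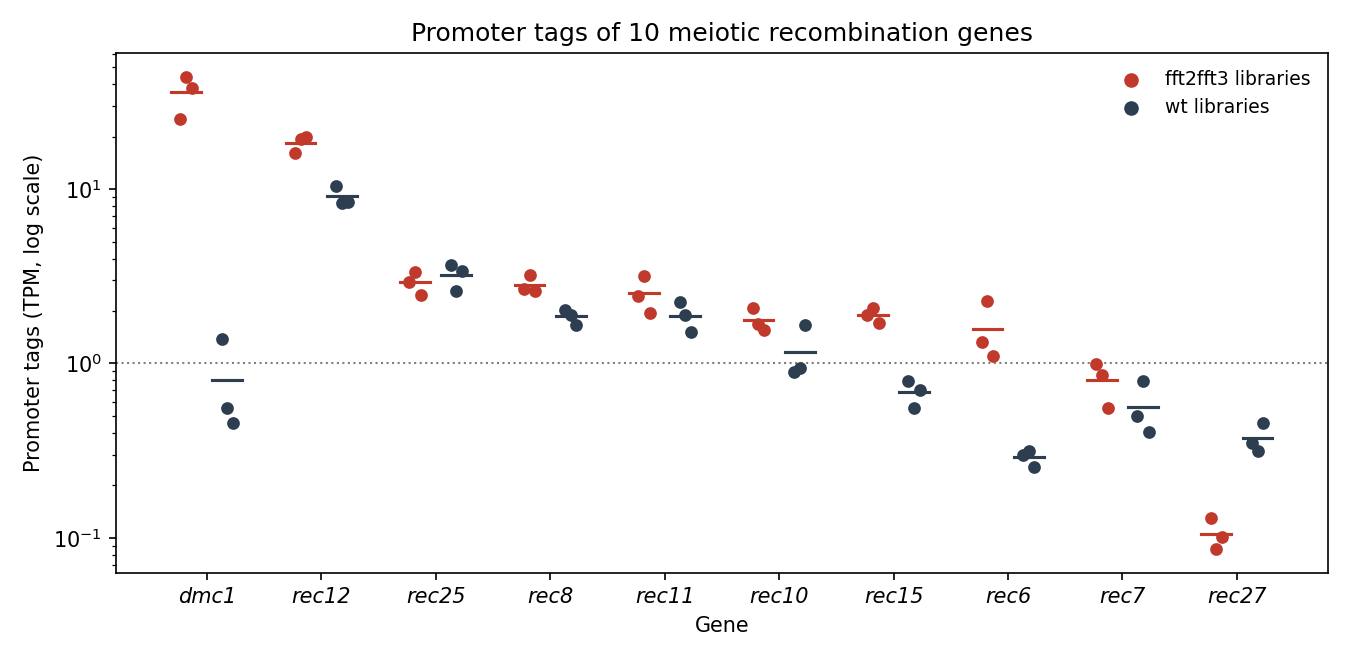
Promoter tags of the 10 genes in each library, in TPM on a log axis, with fft2fft3 libraries left of wt libraries for each gene, bars at group means and a dotted line at 1 TPM. The 3 mutant points of dmc1 lie between 25.3 and 44.3 TPM, above wt points of 0.455 to 1.39 TPM, whereas rec27 is the gene whose mutant points all lie below its wt points.

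The recombinase gene dmc1 (SPAC8E11.03C, I:3382264-3383404, plus strand) had 25.3, 44.3 and 38.3 promoter TPM in fft2fft3, and 1.39, 0.552 and 0.455 TPM in wt. All mutant libraries lay far above all wt libraries, and wt replicate 1 was the highest wt library. The means were 36 ± 9.71 TPM in fft2fft3 and 0.801 ± 0.517 TPM in wt, a 45-fold difference. It was 71.5-fold without wt replicate 1 and 37-fold without wt replicate 3. In recovered tags the promoter had 2379 in fft2fft3 against 44 in wt. The log2 fold change was 4.84 (SE 0.31, 95% interval 4.12 to 5.56, limma adjusted p = 1.55e-05) and ranked 3 of 5610 genes, and with TMM it was 4.73. All dmc1 promoter tags fell in 1 cluster, 3 bp wide, with its summit at 1. The summit, on the annotated base in exon 1 and 68 bp before the start codon, is 1 position taken over all libraries, so the position used within the cluster in wt was not measured.

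The genes on either side of dmc1 did not pass the test. SPAC8E11.04C, which ends 345 bp upstream of dmc1 on the same strand, had 13.4 ± 1.14 TPM in fft2fft3 and 12.7 ± 2.87 TPM in wt (limma adjusted p = 0.751). The 14-3-3 protein gene rad24, which begins 822 bp downstream, had 3105 ± 282 and 2605 ± 237 TPM (adjusted p = 0.157). By Euclidean distance in log2(TPM + 0.5) over the 6 libraries, the protein-coding promoters most like that of dmc1 were cmt2, SPAC11D3.01C and pat1, at distances of 1.68, 2.27 and 2.61. The gene pat1 encodes the kinase that holds cells out of meiosis.

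Inside dmc1, sense and antisense tags were also higher in fft2fft3. The 11 intragenic sense clusters, all in exon 2, summed to 2.07, 2.07 and 2.01 TPM in fft2fft3, and 0.0498, 0.0789 and 0 TPM in wt. That was 136 tags against 2, a rate ratio of 53.9 (95% counting interval 14.6 to 449), and the log2 fold change was 2.23 (SE 0.20, limma adjusted p = 2.04e-08). The fold of means was 47.8, and became 82.3 without wt replicate 2 and 31.9 without wt replicate 3. None of the 11 reached 1 TPM alone. Together they made up 7.54%, 4.46% and 4.99% of the gene's same-strand tags in fft2fft3, and 3.45%, 12.5% and 0% in wt. That share did not separate the strains (exact two-sided permutation p = 0.9). With 2 intragenic tags in wt, it cannot tell whether intragenic tags rose more or less than promoter tags. Antisense tags summed to 7.27, 8.06 and 5.94 TPM in fft2fft3, and 0.697, 0.946 and 1.37 TPM in wt (log2 2.35, SE 0.20, limma adjusted p = 5.17e-07). The strongest antisense cluster, with its summit at 656, had 2.26 ± 0.29 TPM in fft2fft3 and 0.06 ± 0.0532 TPM in wt (151 against 3 tags, rate ratio 39.9, counting interval 13.4 to 195), a 37.7-fold difference of means that was 57.3-fold without wt replicate 3 and 25.1-fold without wt replicate 1. The annotated antisense RNA SPNCRNA.904, which covers the whole of dmc1 (I:3382189-3383857, minus strand) and ends between its start and its ACGCGT, fell, with 2.88, 2.84 and 3.63 TPM in fft2fft3, and 12, 8.75 and 7.89 TPM in wt (log2 -1.46, SE 0.20, limma adjusted p = 0.000897).

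**Figure D2:**
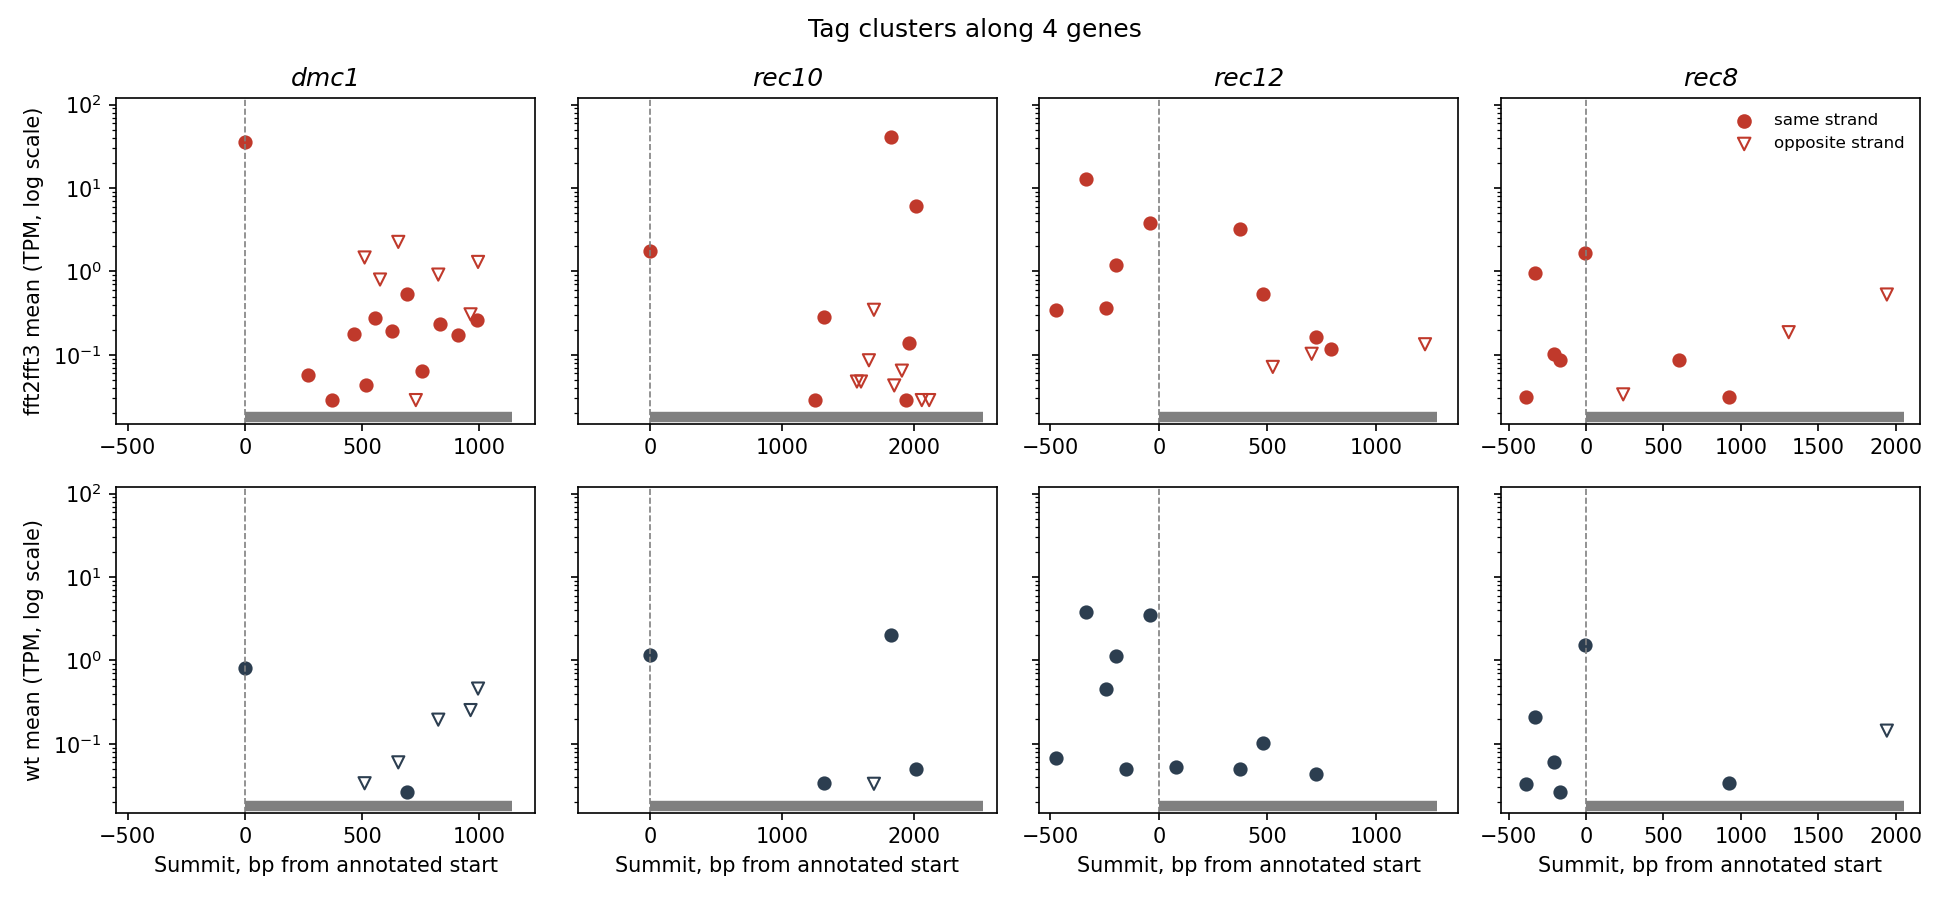
Mean TPM on a log axis of each tag cluster along dmc1, rec10, rec12 and rec8, by distance of its summit from the annotated start in bp, with fft2fft3 above wt. Filled circles are same-strand clusters, open triangles opposite-strand clusters, and the grey bar is the annotated gene. Clusters with a mean at or close to 0 in a strain are not drawn, such as dmc1 at 991 bp with 0.0166 TPM in wt. The rec10 cluster near 1826 bp stands at 41.4 TPM in fft2fft3 and 2.01 TPM in wt, and the rec12 cluster 337 bp upstream at 12.8 and 3.81 TPM.

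Of the genes for the cutting machinery, rec12 and rec15 were higher in fft2fft3, rec6 lay higher below the filter, and rec7 overlapped between strains. The gene rec12 (SPAC17A5.11, I:1772925-1774203, plus strand) encodes the protein that makes the cuts. Its promoter clusters summed to 16.2, 19.4 and 19.9 TPM in fft2fft3, and 10.5, 8.36 and 8.5 TPM in wt. The groups did not overlap, with means of 18.5 ± 1.99 and 9.11 ± 1.18 TPM. The log2 fold change was 0.99 (SE 0.16, limma adjusted p = 0.00226), or 0.84 with TMM.

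Most of the rise of rec12 lay in a distant start. The cluster with its summit 337 bp upstream had 10.9, 13.2 and 14.2 TPM in fft2fft3, and 5.28, 2.6 and 3.54 TPM in wt, so the mutant libraries were all higher. Its log2 fold change was 1.66 (SE 0.24, limma adjusted p = 0.000454). The cluster with its summit 42 bp upstream, next to the start codon, had 3.61, 4.14 and 3.78 TPM in fft2fft3, and 3.39, 3.63 and 3.64 TPM in wt. Its log2 fold change was 0.10 (95% interval -0.24 to 0.44, adjusted p = 0.622), or -0.04 with TMM. Another tested cluster, with its summit 195 bp upstream, had a log2 fold change of 0.10 (95% interval -0.43 to 0.63, adjusted p = 0.762). The distant cluster held 67.1%, 68% and 71.6% of rec12 promoter tags in fft2fft3, and 50.5%, 31.1% and 41.7% in wt. An exact two-sided permutation test of that share gave p = 0.1, the smallest that 3 libraries against 3 allow. A promoter window from only 200 bp upstream leaves the distant start out, and the call then ended (log2 0.07, limma adjusted p = 0.760).

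The distant start lies 218 bp past the end of the isoleucine tRNA gene SPATRNAILE.01 (I:1772296-1772369). The next coding gene upstream, hua1, ends 901 bp before rec12 and was also higher, with 187 ± 24.3 TPM in fft2fft3 and 116 ± 3.1 TPM in wt (log2 0.68, limma adjusted p = 0.00404). The 3 starts of rec12 whose tags separate the strains or not are printed here, with the pyrimidine-purine step of each start in capitals and ACGCGT in capitals where it occurs. They cover I:1772527-1772606 for the distant start, I:1772822-1772911 for the near one and I:1773239-1773318 for the internal one, all on the plus strand.
rec12 start 337 bp upstream: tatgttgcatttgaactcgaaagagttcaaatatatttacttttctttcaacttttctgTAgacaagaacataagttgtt
rec12 start 42 bp upstream: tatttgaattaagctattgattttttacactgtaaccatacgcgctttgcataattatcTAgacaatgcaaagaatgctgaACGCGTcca
rec12 internal start at 375: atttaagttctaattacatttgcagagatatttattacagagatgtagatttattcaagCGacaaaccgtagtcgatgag

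The internal start of rec12, in exon 2 at codon 106, was used in fft2fft3 and hardly in wt. Its cluster had 3.44, 2.8 and 3.37 TPM in fft2fft3, and 0, 0 and 0.152 TPM in wt. That was 212 tags against 3, a rate ratio of 56 (95% counting interval 18.9 to 274), with a log2 fold change of 2.76 (SE 0.18, limma adjusted p = 3.88e-06). The fold of means was 63.2, and 42.1 without wt replicate 1 or 2, while without wt replicate 3 the wt libraries were at 0. All intragenic tags of rec12 summed to 4.03 ± 0.0875 TPM in fft2fft3 and 0.196 ± 0.0842 TPM in wt (log2 2.71, adjusted p = 8.61e-10). They made up 19.6%, 17.1% and 17.2% of the gene's same-strand tags in fft2fft3, and 0.943%, 2.75% and 2.89% in wt. The first ATG after the internal start is out of frame, and the first in frame is codon 207 of 345.

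The gene rec15 (SPBC1711.14, II:2161487-2162200, plus strand) encodes a partner that links the cutting proteins to the chromosome axis. It had 1.89, 2.07 and 1.71 promoter TPM in fft2fft3, and 0.797, 0.552 and 0.708 TPM in wt, with no overlap. The log2 fold change was 1.01 (SE 0.16, limma adjusted p = 0.00211) and 0.91 with TMM. Of the members, it was the one with no ACGCGT in the window and the one with 0 intragenic tags in every library. It lies wholly within the opposite-strand gene SPBC1711.15C, whose promoter had 2.85 ± 0.839 TPM in fft2fft3 and 1.99 ± 0.387 TPM in wt (adjusted p = 0.222). The start of rec15, at II:2161427-2161506 on the plus strand, is shown because it is the promoter that rose without that motif.
rec15: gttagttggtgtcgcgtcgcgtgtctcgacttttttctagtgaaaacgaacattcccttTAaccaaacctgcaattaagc

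The gene rec6 (SPBC21B10.12, II:1648948-1650156, minus strand), for another partner of Rec12, averaged 0.932 TPM over the 6 libraries and so was not tested. It had 1.33, 2.28 and 1.11 promoter TPM in fft2fft3, and 0.299, 0.315 and 0.253 TPM in wt. Every mutant library lay above every wt library, with 106 tags against 15, a rate ratio of 5.6 (95% counting interval 3.24 to 10.4). Its cluster had its summit 77 bp upstream of the annotation, and ACGCGT follows the first transcribed base. Without the filter on low values its log2 fold change was 1.35 (SE 0.22, limma adjusted p = 0.00147). The neighbour of rec6 on the opposite strand, yox1, which encodes a repressor of MBF, fell to 21.3 ± 1.69 TPM in fft2fft3, against 42.1 ± 0.643 TPM in wt (log2 -0.97, limma adjusted p = 0.000566).

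The gene rec7 (SPCC1753.03C, III:1547051-1549069, minus strand), also for a partner of Rec12, showed no separation of the strains on its own strand. Its promoter was below 1 TPM, with 0.99, 0.862 and 0.554 TPM in fft2fft3, and 0.498, 0.789 and 0.405 TPM in wt. Its intragenic tags were at 1.38, 0.948 and 1.01 TPM in fft2fft3, and 1.15, 1.42 and 1.37 TPM in wt (log2 -0.18, SE 0.20, limma adjusted p = 0.428). The 13 clusters behind that sum were all weak, and none reached 1 TPM. Antisense tags of rec7 were at 3.14, 4.61 and 6.95 TPM in fft2fft3, and 4.73, 6.15 and 4.35 TPM in wt (log2 -0.09, SE 0.24, adjusted p = 0.725). They come mostly from the start of the antisense RNA tos1, with 4.41 ± 2.12 TPM in fft2fft3 and 4.59 ± 0.977 TPM in wt (adjusted p = 0.791). A further antisense RNA over rec7, SPNCRNA.132, begins downstream of it and rose, with 4, 6.25 and 5.49 TPM in fft2fft3, and 2.14, 1.26 and 1.16 TPM in wt (log2 1.52, SE 0.24, adjusted p = 0.00217).

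Among the linear element genes, no promoter was called higher, while rec10 had a strong internal start. The gene rec10 (SPAC25G10.04C, I:4301367-4303893, minus strand) is a single exon that encodes the main axis protein. Its promoter had 2.07, 1.68 and 1.56 TPM in fft2fft3, and 0.897, 0.946 and 1.67 TPM in wt. The groups overlapped through wt replicate 3, and the log2 fold change was 0.47 (SE 0.21, limma adjusted p = 0.133). Without wt replicate 3 it was 0.67 and passed (adjusted p = 0.0410).

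Intragenic tags of rec10 summed to 44.4, 50.3 and 49.4 TPM in fft2fft3, and 2.34, 2.37 and 1.57 TPM in wt. The means were 48.1 ± 3.17 and 2.09 ± 0.453 TPM, a 23-fold difference, with 3182 tags against 108. The log2 fold change was 4.24 (SE 0.15, 95% interval 3.92 to 4.56, limma adjusted p = 1.72e-13), which ranked 5 of 2489 genes tested. With TMM it was 4.10. Of the 4 members tested for intragenic tags, 3 were higher (rec10, rec12 and dmc1) and 0 lower, against 72.5% higher and 2.77% lower of all genes tested. The median log2 fold change of intragenic sums was 0.81 over all those genes, and at an unadjusted p under 0.05 the member counts were again 3 and 0, as with edgeR and DESeq2. The genes rec12 and dmc1 reached the filter only through the mutant.

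The rec10 tags came from 2 clusters in the last part of the coding sequence. That with its summit at 1826 (I:4302022-4302133, 112 bp wide, codon 571 of 791) had 39, 43.1 and 42.2 TPM in fft2fft3, and 2.19, 2.37 and 1.47 TPM in wt (log2 4.08, SE 0.18, limma adjusted p = 1.13e-06). That with its summit at 2013, at codon 633, had 5.08, 6.64 and 6.8 TPM in fft2fft3, and 0.0996, 0 and 0.0506 TPM in wt. In tags this was 407 against 3, a rate ratio of 107 (95% counting interval 36.5 to 523). The fold of means was 123, and became 244 without wt replicate 1 and 82.2 without wt replicate 2. From both starts the first ATG is out of frame and the first in frame is codon 725. The main internal start is printed here since it carries most of the gene's capped ends, at I:4302049-4302128 on the minus strand, with the pyrimidine-purine step in capitals.
rec10 internal start at 1826: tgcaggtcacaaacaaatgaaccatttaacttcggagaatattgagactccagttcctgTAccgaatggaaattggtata

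Internal starts outweighed the promoter of rec10 in every library except wt replicate 3. They held 95.6%, 96.8% and 96.9% of its same-strand tags in fft2fft3, and 72.3%, 71.4% and 48.4% in wt (exact two-sided permutation p = 0.1, the smallest possible). The ratio of intragenic to promoter tags was 27.2 in fft2fft3 and 1.79 in wt. Of 4290 protein-coding genes with a same-strand mean of at least 5 TPM, intragenic tags exceeded promoter tags in 215 in fft2fft3 and in 85 in wt. When all same-strand tags were summed, rec10 had a log2 fold change of 3.74 (SE 0.12, limma adjusted p = 3.43e-06), whereas its promoter alone did not pass the test. The gene upstream on the same strand, his1 of histidine synthesis, fell to 867 ± 51.5 TPM in fft2fft3, against 1409 ± 57.5 TPM in wt (log2 -0.70, adjusted p = 0.00149).

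**Figure D3:**
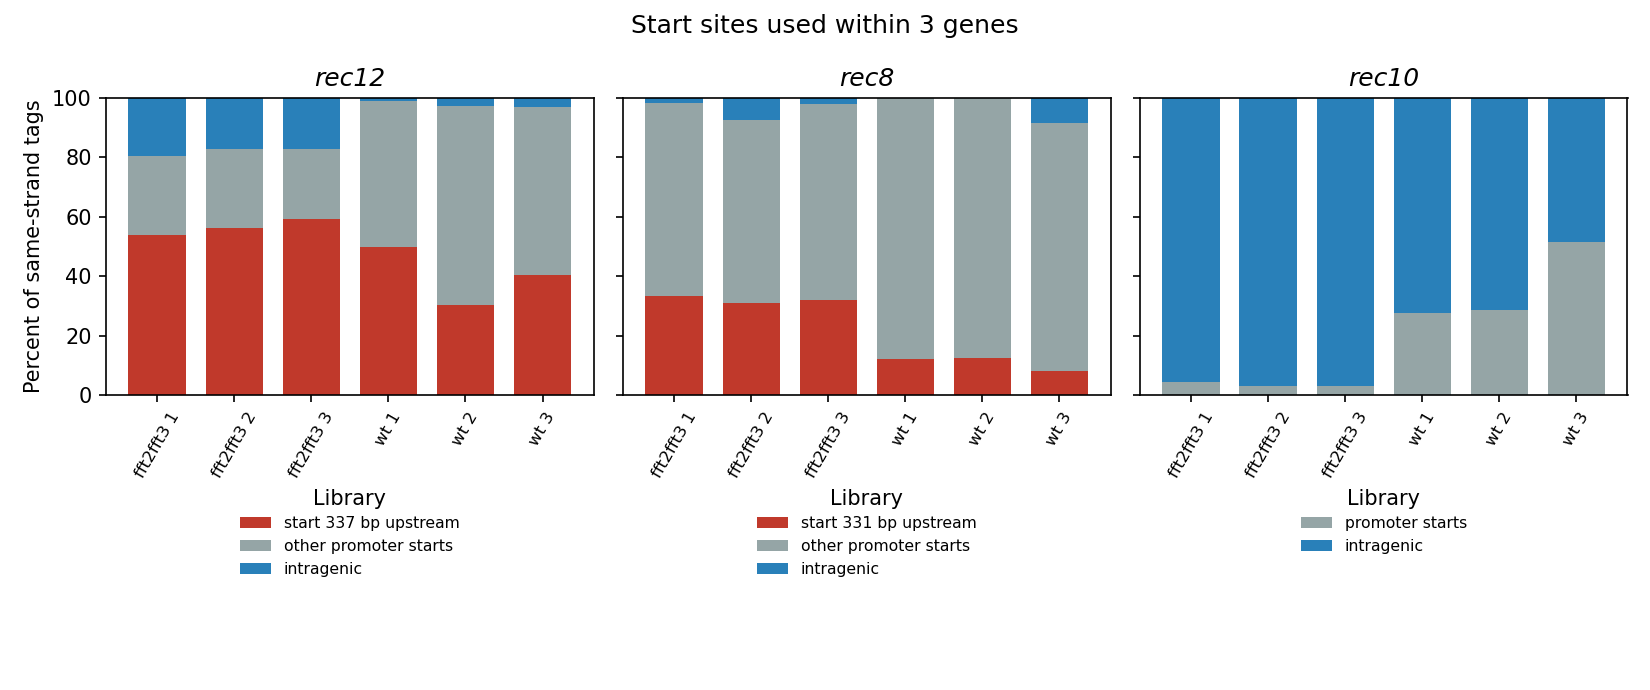
Percent of each library's same-strand tags of rec12, rec8 and rec10 that fell in promoter or intragenic clusters, with the 3 fft2fft3 libraries left of the 3 wt libraries. Bars add to 100%. Intragenic tags are the larger part of rec10 in every library except wt replicate 3, at 48.4%, and the distant promoter starts of rec12 and rec8 take a larger part in each mutant library than in any wt library.

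The small linear element proteins Rec25 and Rec27 mark sites of frequent cutting. The promoter of rec25 (SPAC17A5.18C, I:1751076-1753685, minus strand) had 2.93, 3.36 and 2.47 TPM in fft2fft3, and 3.69, 2.6 and 3.39 TPM in wt. The strains overlapped, and the log2 fold change was -0.12 (95% interval -0.55 to 0.31, limma adjusted p = 0.653). Its intragenic sum averaged 0.746 TPM over the 6 libraries and was not tested, with 1.08, 1.38 and 1.66 TPM in fft2fft3, and 0.0498, 0.158 and 0.152 TPM in wt (90 tags against 6, rate ratio 11.9, counting interval 5.25 to 33.2). These tags were spread over 16 clusters, the strongest of them, at 704 and 1210, beyond the coding end. Both of the strongest also lie inside the opposite-strand gene pex6, and so are antisense to it. The promoter of rec27 (SPBC577.05C, II:757399-758042, minus strand) was the weakest of the members, with 0.129, 0.0862 and 0.101 TPM in fft2fft3, and 0.349, 0.315 and 0.455 TPM in wt. Here every mutant library lay below every wt library, on 7 tags against 20 (rate ratio 0.277, counting interval 0.099 to 0.683). Without the filter its log2 fold change was -0.53 (SE 0.12, limma adjusted p = 0.00784), where the added 0.5 TPM exceeds both means.

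Of the meiotic cohesin genes, rec8 passed the test narrowly and rec11 did not pass. The gene rec8 (SPBC29A10.14, II:2568938-2570993, plus strand) encodes the meiotic kleisin, which replaces Rad21. It had 2.67, 3.23 and 2.62 promoter TPM in fft2fft3, and 2.04, 1.89 and 1.67 TPM in wt, without overlap. The log2 fold change was 0.49 (SE 0.16, limma adjusted p = 0.0454). That call ended without any single library (adjusted p between 0.0711 and 0.142), with TMM (log2 0.37, adjusted p = 0.0933) and with edgeR (adjusted p = 0.110).

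As in rec12, most of the difference at rec8 lay in a distant start. The main cluster, with its summit 9 bp upstream, had 1.51, 1.85 and 1.66 TPM in fft2fft3, and 1.64, 1.5 and 1.47 TPM in wt (log2 0.09, 95% interval -0.26 to 0.44, limma adjusted p = 0.662). With TMM its log2 fold change was -0.03. The cluster with its summit 331 bp upstream averaged less than 1 TPM over the 6 libraries, with 0.904, 1.08 and 0.856 TPM in fft2fft3, and 0.249, 0.237 and 0.152 TPM in wt. That was 63 tags against 11, a rate ratio of 4.54 (95% counting interval 2.37 to 9.55). It held 33.9%, 33.3% and 32.7% of rec8 promoter tags in fft2fft3, and 12.2%, 12.5% and 9.09% in wt (exact two-sided permutation p = 0.1, the smallest possible). This start lies at II:2568546-2568625 on the plus strand and is shown for comparison with the promoter of rec8 printed earlier, at which the main cluster did not pass the test.
rec8 start 331 bp upstream: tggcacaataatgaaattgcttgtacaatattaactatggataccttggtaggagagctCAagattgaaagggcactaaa

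The gene rec11 (SPCC4E9.01C, III:1223308-1226968, minus strand) encodes the meiotic partner of Rec8 on chromosome arms, in place of Psc3. Its promoter had 2.45, 3.19 and 1.96 TPM in fft2fft3, and 2.24, 1.89 and 1.52 TPM in wt, with overlap (log2 0.34, SE 0.21, limma adjusted p = 0.243). Its antisense tags had 3.36, 3.97 and 2.27 TPM in fft2fft3, and 3.34, 4.89 and 4.96 TPM in wt. Their log2 fold change was -0.42 (SE 0.22, adjusted p = 0.0929), which passed as lower with TMM (log2 -0.55, adjusted p = 0.0336), with edgeR (adjusted p = 0.0334), without fft2fft3 replicate 2 (0.0417) and without wt replicate 1 (0.0305). Of the 3 members tested for antisense tags, 1 was higher (dmc1) and 0 lower, against 83.1% higher and 2.12% lower of 1602 genes tested, whose median log2 fold change was 1.73. At an unadjusted p under 0.05 the counts were also 1 and 0, while edgeR gave 1 and 1 and DESeq2 1 and 0.

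Antisense sums of rec8, rec10, rec12 and rec6 lay below 1 TPM. They were 0.749 ± 0.135 TPM in fft2fft3 and 0.16 ± 0.0876 TPM in wt for rec8, and 0.694 ± 0.215 and 0.0332 ± 0.0575 TPM for rec10. The gene rec12 had 21 antisense tags in fft2fft3 and 0 in wt, and rec6 had 10 and 0, where 3 tags over a group correspond to 0.0452 TPM in fft2fft3 and 0.0571 TPM in wt. The genes rec15, rec25 and rec27 overlap a coding gene on the other strand (SPBC1711.15C, pex6 and tho5). The opposite-strand clusters, 1 in rec15 and 8 in rec25, were assigned to that gene, and rec27 held no opposite-strand cluster. Of 12 annotated non-coding RNAs that overlap members on the other strand, 5 were tested, 2 were higher (SPNCRNA.132 and SPNCRNA.1203, both over rec7) and 1 lower (SPNCRNA.904). Among all 5610 genes tested, coding and non-coding, 24.3% were higher and 9.11% lower. Most of these, 4685, are protein-coding, with 16.9% higher and 9.65% lower. Among the remaining genes the share higher is therefore above 24.3% and the share lower below 9.11%.

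The members' windows held 136 tag clusters. They include 4 same-strand clusters in rec12 and 9 opposite-strand clusters that were assigned to another gene, all below 1 TPM. Of the 136, 15 had a mean of at least 1 TPM. Of these 15, 7 were higher in fft2fft3 and 0 lower, against 36.9% and 9.36% of 11250 clusters tested (limma). At an unadjusted p under 0.05 the counts were 7 and 1, and edgeR and DESeq2 each gave 7 and 1, the 1 being the rec11 antisense cluster with its summit at 1973. Of the 7 called higher, 5 reached 1 TPM only through the mutant and so had to differ to be tested (the dmc1 promoter and its antisense cluster at 656, the rec15 promoter, rec10 at 2013 and rec12 at 375), which leaves rec12 at 337 bp upstream and rec10 at 1826. By kind, 3 of 9 promoter clusters were higher, against 21.9% of all promoter clusters tested, and 3 of 3 intragenic clusters, against 48.4%. Of the antisense clusters 1 of 3 was higher, against 75.3%. Those reaching the filter only through the mutant were 2 of the promoter, 2 of the intragenic and 1 of the antisense clusters, all of them called. All 21 member start sites with a mean of at least 0.5 TPM, on either strand, had a pyrimidine-purine step at the start.

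**Figure D4:**
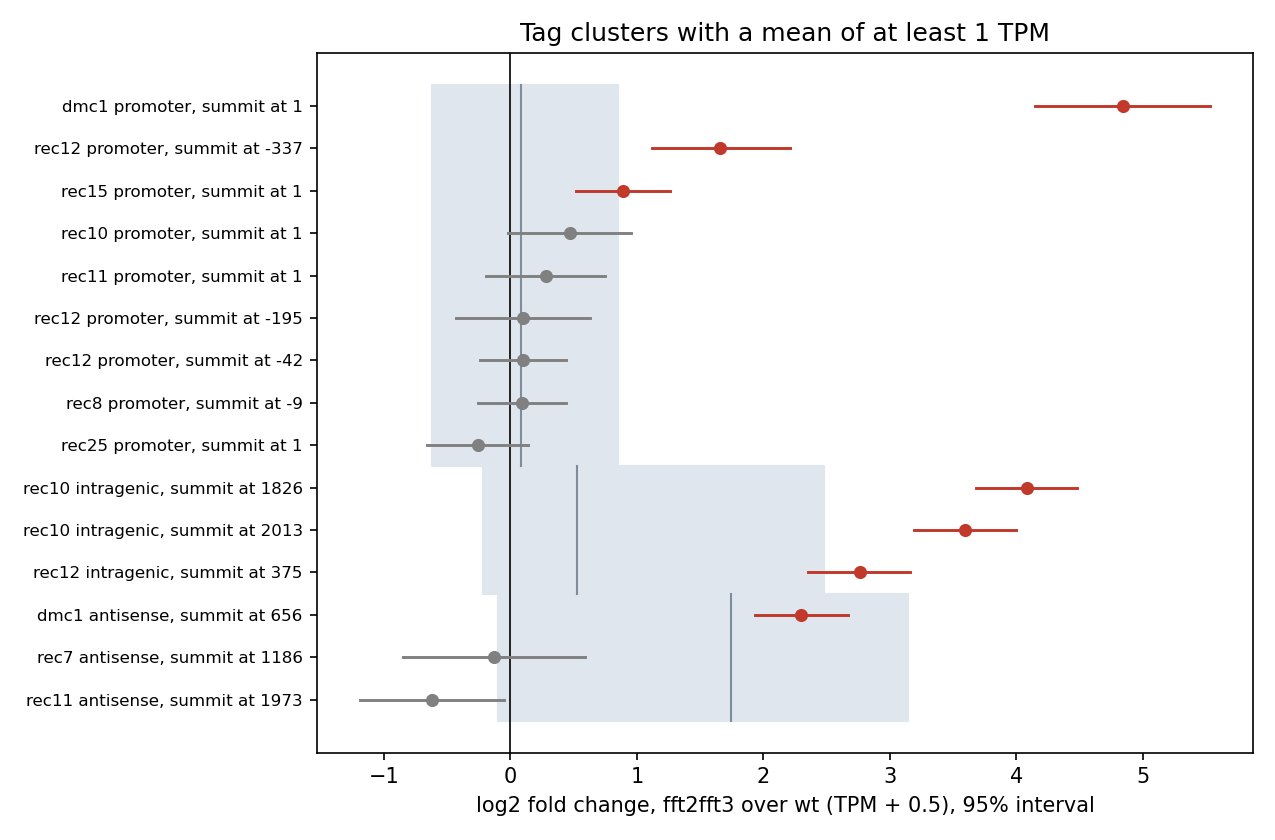
Log2 fold change, fft2fft3 over wt, with its 95% interval, of the 15 member clusters with a mean of at least 1 TPM, with red for those past the threshold and grey for the others. Shaded bands run over the 10th to 90th percentile of all tested clusters of the same kind, with a line at the median (0.08 for promoter, 0.53 for intragenic and 1.74 for antisense clusters). The dmc1 promoter at 4.84 and the rec10 internal starts at 4.08 and 3.59 lie farthest above their bands, and the dmc1 antisense cluster lies within its band.

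Of 10 other genes of meiotic recombination and the axis, 6 were tested, and 1 was higher and 0 lower in limma. Among protein-coding genes tested 16.9% were higher and 9.65% lower, and among all genes tested 24.3% and 9.11%. The median log2 fold change of the list was 0.11. At an unadjusted p under 0.05 the counts were 2 and 1, and both scalings, edgeR and DESeq2 gave 1 and 1. The higher one was rec24, a partner of Rec7 in the cutting complex, with 8.26, 9.52 and 7.45 TPM in fft2fft3, and 2.59, 2.21 and 2.78 TPM in wt (log2 1.56, SE 0.16, limma adjusted p = 0.000222). The axis gene hop1 had 0.838 ± 0.148 TPM in fft2fft3 and 0.176 ± 0.15 TPM in wt, below the filter. Of 22 tested genes of general homologous recombination, 0 were called in limma (2 higher at an unadjusted p under 0.05), and 0 by edgeR or DESeq2, with a median of 0.03.

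Of 11 tested genes of cohesin and its protectors, 3 were higher and 0 lower, also at an unadjusted p under 0.05. Among protein-coding genes tested 16.9% were higher and 9.65% lower, and among all genes tested 24.3% and 9.11%. The list as a set was not tested. Its median log2 fold change was 0.25, against 0.08 over protein-coding genes and 0.13 over all genes tested. The 3 are named here by the rule for lists. They were rad21, the kleisin of growing cells (71.6 ± 5 TPM in fft2fft3 and 50.3 ± 8.8 TPM in wt, log2 0.52), the loader gene mis4 (0.60) and moa1, for a partner of Rec8 at centromeres (0.60), with adjusted p of 0.0347, 0.0259 and 0.0241 in limma. Both scalings and edgeR gave 0 higher and 1 lower, and DESeq2 1 and 1. The gene moa1 was also the promoter most like rec8 over the 6 libraries, at a distance of 0.31. Of 8 tested genes of meiotic chromosome movement, 0 were called in limma, also at an unadjusted p under 0.05, while edgeR gave 0 higher and 1 lower, and DESeq2 0 and 2. Next nearest to rec8 were SPBC1711.15C and plg7, at 0.47 and 0.50. The promoters nearest in pattern to rec12 were srb6, of the Mediator complex, atp12 and mug9, at distances of 0.34, 0.43 and 0.44. Those nearest to rec15 were tms1, SPAC977.05C and mug153, at 0.30, 0.48 and 0.59.

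Of 7 tested regulators of meiosis and of meiotic RNA elimination, 2 were higher and 0 lower in limma. Among protein-coding genes tested 16.9% were higher and 9.65% lower, and among all genes tested 24.3% and 9.11%. The list as a set was not tested. It had a median log2 fold change of 0.33, against 0.08 over protein-coding genes and 0.13 over all genes tested. At an unadjusted p under 0.05 the counts were also 2 and 0, as with edgeR and DESeq2. The kinase gene pat1, which reached 1 TPM only through the mutant, had 12.3, 15.8 and 11.7 TPM in fft2fft3, and 0.598, 0.237 and 0.506 TPM in wt (log2 3.87, SE 0.21, limma adjusted p = 8.45e-06). The gene ste11, for the factor that starts sexual differentiation, had 4.18 ± 0.127 TPM in fft2fft3 and 2.08 ± 0.257 TPM in wt (log2 0.87, adjusted p = 0.00341). The gene mmi1 had 7.71 ± 0.865 and 6.05 ± 0.739 TPM (adjusted p = 0.157), and mei4, the main activator of later meiotic genes, had 2.86 ± 1.1 and 2.63 ± 0.135 TPM (adjusted p = 0.916). The Mmi1 motif TNAAAC, searched on the sense strand over the whole gene, had a median of 1.65 copies per kb in protein-coding genes. It was above that median in all members but rec12 and rec6. The highest densities were 14 per kb in rec27 and 7.78 per kb in rec8, whose 16 copies place it at or above 99.8% of coding genes, whereas dmc1 had 1.75 per kb.

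The 10 markers of meiosis and sporulation summed to 80.5, 72.8 and 63.2 TPM in fft2fft3, and 39.1, 41 and 36.8 TPM in wt. Of 8 tested, 5 were higher, namely spn6, spo2, mde10, meu14 and spo5, with log2 fold changes of 3.09, 3.03, 2.57, 1.83 and 1.62, and 1 was lower, spo6 (log2 -0.45, limma adjusted p = 0.0472), against 16.9% and 9.65% of protein-coding genes. The genes spo2 and mde10 reached 1 TPM only through the mutant. The other tested markers, mei4 and ssm4, had log2 fold changes of 0.04 and 0.27 and did not pass. In a library at most 3 of the 10 were at 0. Markers of starvation and mating summed to 190, 251 and 264 TPM in fft2fft3, and 65, 484 and 66 TPM in wt, where replicate 2 is the high one. Against the same shares of protein-coding genes, 2 of 9 tested were higher (zym1, log2 2.99, and ste11, 0.87) and 2 lower (ste6, -0.85, and fnx1, -0.67). The part of these states in the members' differences was not tested. A larger number of cells expressing a gene and more RNA per cell cannot be told apart in bulk samples. Of the 20 coding genes that neighbour the members, 2 were higher and 2 lower, against 16.9% and 9.65% of protein-coding genes. The higher ones were hua1 and tol1, which lies next to rec7 (log2 0.50, limma adjusted p = 0.018). The lower ones were yox1 and his1.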

How the data were processed

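Capped 5′ ends were measured by CAGE in total RNA of 3 fft2fft3 and 3 wt libraries. The authors deposited RPM, named TPM in the files, where T stands for tags, for the same 108138 tag clusters in every library. A deposited table gives each cluster's strand, summit and a pooled score, a signal taken by the authors over all libraries, which was not tested. The submitters' processing notes name bedtools 2.15.0, Bowtie 0.12.7 and CASAVA 1.6 and the build ASM294v2, and their roles are not given in the sources used here. Clusters were defined jointly, so a shift of starts inside a cluster cannot be seen.

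Values above 0 were whole multiples of 1 tag in 99.7% to 99.8% of cases (tolerance 0.02 tags), which gave tags per library, of which 91.2% to 92.3% lay in clusters. Counting intervals are exact (Clopper-Pearson on the split of tags), and like floors of 3 tags per group they cover counting error only, as tags read without molecular identifiers may be copies of one molecule.

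Genes and sequences come from the RefSeq annotation of assembly ASM294v3. Of 4348 promoter clusters of 5 TPM or more, 98.3% showed a pyrimidine-purine step that ends 1 bp before the deposited summit, against 23.1% of genome positions. In 76.4% the summit lay 1 bp past an annotated start. The base before the summit is therefore taken as the first transcribed base.

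Promoter, intragenic and antisense sums and single clusters were each tested over the whole table, fft2fft3 against wt, with limma 3.58.1 (empirical Bayes with trend, two-sided) in R 4.3.3, after adding 0.5 TPM and keeping means of at least 1 TPM. The log2 scale understates changes of low genes. Alternatives were edgeR 4.0.16 and DESeq2 1.42.0 on recovered tags, TMM and median-of-ratios scaling, pseudocounts of 0.1 and 1 TPM, no filter and 5 TPM, a 200 bp window, all same-strand tags, a replicate block and each library left out. The code was tested on simulated data.

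All 10 members were named, with their clusters of at least 1 TPM, adjacent coding genes, the 3 promoters nearest in pattern to each called member, and up to 4 called genes per list by size. Other genes named beside these (hop1, mmi1, mei4, mei2) were chosen after their values were seen, and so were the shares of the rec8 and rec12 starts. The members and lists were chosen with earlier results of these data known. The growth protocol speaks of cultures in duplicate and the series of triplicates, so libraries may share a culture, and a p-value covers only how libraries differ.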

Additional observations from a re-analysis of the deposited data

How the results depend on the processing

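The promoter rises of dmc1, rec12 and rec15, the intragenic rises of dmc1, rec10 and rec12 and the antisense rise of dmc1 kept their direction and call in every alternative that tested them, except rec12 with a promoter window of 200 bp (log2 0.07). No value changed direction past the threshold. Promoter counts became 3 higher, without rec8, with a pseudocount of 0.1 TPM, TMM, median-of-ratios scaling, edgeR or DESeq2, 3 to 4 with each library left out, 2 with the 5 TPM filter or the 200 bp window, and 5, with rec10 added, with all same-strand tags. With no filter they were 4 higher, where rec6 (adjusted p = 0.00147) took the place of rec8 (0.0738), and 1 lower (rec27). Intragenic counts became 1 higher with the 5 TPM filter and 4, with rec25 added (log2 1.59), with no filter. Antisense counts became 5 higher with no filter and 0 higher with the 5 TPM filter, and 1 lower (rec11) with TMM, median-of-ratios scaling or edgeR. Leaving out each library gave 0 to 1 antisense sums lower. Counts of single clusters became 29 higher with no filter and 3 higher with the 5 TPM filter. They became 1 lower with no filter, TMM, median-of-ratios scaling, edgeR or DESeq2, and 0 to 1 lower with each library left out.

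Replicate numbers are shared by the strains, but same-numbered libraries did not deviate together (r of -0.18, -0.15 and -0.25, against up to 0.35 for other pairs). Deviations were taken from means of 3 libraries, which ties these r values together. They cannot decide whether same-numbered libraries share a culture or preparation. With a replicate block, 3 promoters were higher in place of 4. The call lost was rec8 (log2 0.49, limma adjusted p = 0.119). No other member call changed. Depth limits rec6, rec7 and rec27, whose promoters rest on 7 to 106 tags per group.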
